A study of Mus musculus with 8 samples.

Results

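Trem2, Tyrobp and Apoe, with the signalling genes Syk, Plcg2 and Inpp5d, were followed in the hippocampus of mice with and without beta-glucuronidase deficiency. Members were all probe sets on the array whose single gene symbol was 1 of these 6, which gave 10 of the 22626 probe sets that are not controls, and 6 of 12393 genes. A probe set is a group of short probes read together as 1 measurement of a transcript. Trem2 and Inpp5d had 2 probe sets each, Syk had 3, and Tyrobp, Apoe and Plcg2 had 1 each. Probe sets of a gene were kept apart.

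Each of the 8 Affymetrix mouse arrays held RNA from the right hippocampus of a different animal, 4 normal and 4 mutant, on a background labelled bl6. Both groups carry the mps allele of Gusb, the gene of the lysosomal enzyme beta-glucuronidase. The normal mice are carriers (B6.C-H2-Kbm1/ByBir-Gusb mps/+ by the strain label) and not wild type, and the mutants are mps/mps, a model of the lysosomal storage disease mucopolysaccharidosis VII. No agent was given. Normal 1 was a female of 38.3 weeks, normals 2 and 3 were males of 25.6 and 19.6 weeks, and normal 4 was a female of 14.6 weeks. Mutant 1 was a female of 38.3 weeks, mutants 2 and 3 were males of 25.6 weeks, and mutant 4 was a female of 19.6 weeks. The numbers name the animals and pair none of them.

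Trem2 is a lipid-binding receptor on the surface of microglia, the macrophages of the brain. It has no signalling tail of its own and signals through Tyrobp (also called DAP12), an adaptor whose activation motif recruits the kinase Syk. Syk activates Plcg2, a phospholipase that releases second messengers, while the lipid phosphatase Inpp5d (SHIP1) dampens signalling at the membrane. Apoe, the main apolipoprotein of the brain, is made mostly by astrocytes and also by activated microglia, and lipoproteins that carry it are ligands of Trem2.

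The sequences before the genes' starts are shown for the receptor and its ligand, which were higher in mutants, and for the effector and the inhibitor, which overlapped between the groups. RefSeq promoters on GRCm38.p6, windows of 300 bases around each start, matched 5 of the 6 genes with 8 starts in all. Capitals mark matches to GAGGAAG, a core bound by the ETS factor PU.1, to CACGTG, the E-box palindrome, or to TGANTCA, the AP-1 core, on either strand. The Trem2 window is chr17:48346151-48346450 (plus strand), the Apoe window is that of its first listed start, chr7:19699139-19699438 (minus strand), the Plcg2 window is chr8:117498025-117498324 (plus strand) and the Inpp5d window is chr1:87620062-87620361 (plus strand).
Trem2 promoter: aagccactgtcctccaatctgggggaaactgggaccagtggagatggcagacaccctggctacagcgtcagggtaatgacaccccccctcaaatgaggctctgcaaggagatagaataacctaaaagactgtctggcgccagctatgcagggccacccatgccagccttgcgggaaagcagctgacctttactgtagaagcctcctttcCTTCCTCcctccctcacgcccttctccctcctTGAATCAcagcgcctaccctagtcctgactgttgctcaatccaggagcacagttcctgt
Apoe promoter: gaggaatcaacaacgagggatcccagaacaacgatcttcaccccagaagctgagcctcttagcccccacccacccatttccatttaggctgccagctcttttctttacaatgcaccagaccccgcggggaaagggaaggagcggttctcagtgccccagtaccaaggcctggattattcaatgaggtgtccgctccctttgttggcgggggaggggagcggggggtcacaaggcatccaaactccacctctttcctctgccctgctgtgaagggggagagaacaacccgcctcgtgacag
Plcg2 promoter: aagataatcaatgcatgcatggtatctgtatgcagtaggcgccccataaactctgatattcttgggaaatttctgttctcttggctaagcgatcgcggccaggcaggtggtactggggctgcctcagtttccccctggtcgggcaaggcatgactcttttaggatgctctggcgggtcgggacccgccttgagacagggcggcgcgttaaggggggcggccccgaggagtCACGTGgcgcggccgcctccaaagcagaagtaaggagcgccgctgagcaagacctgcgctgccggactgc
Inpp5d promoter: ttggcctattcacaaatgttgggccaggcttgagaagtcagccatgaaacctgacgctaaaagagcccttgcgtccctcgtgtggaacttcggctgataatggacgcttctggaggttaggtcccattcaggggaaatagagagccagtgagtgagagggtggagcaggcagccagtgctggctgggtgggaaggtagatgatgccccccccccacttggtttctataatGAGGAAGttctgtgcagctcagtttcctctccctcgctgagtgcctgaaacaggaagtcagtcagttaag
Trem2 holds GAGGAAG in reverse, with its first base at -41 from the start, and TGANTCA at -9. Inpp5d holds GAGGAAG at -20 and Plcg2 holds CACGTG at -20. None of the 3 motifs was found in the 3 Apoe or the 2 Syk windows, which says only that these letters are not there. Of 32851 mouse promoters of the same length, 13.6% hold GAGGAAG, 7.15% hold CACGTG and 7.81% hold TGANTCA. The matches are descriptions of sequence, and none overlaps another.

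Arrays differed in ways that touch every value below. A Gusb probe set (1448124_at) was at 5.40 to 6.56 in normals and at most 4.71 in mutants on the log2 scale, while the other (1430332_a_at) had means of 5.77 and 5.93. RNA of normal 1 had a mean 3 prime minus 5 prime value of 3.58 on the actin and Gapdh controls, against 0.22 to 0.75 in the other 7 arrays. All arrays are labelled hippocampus and the mean of 7 hippocampal markers was 7.20 to 7.95 on all of them, but thalamic markers were highest in mutant 2 (10.1) and lowest in mutant 3, and striatal markers were at 9.25 to 10.4 in normals 1, 3 and 4 and at 6.66 to 7.69 elsewhere. Choroid plexus markers were at 7.53 in mutant 1 and 6.71 in mutant 3, against 4.31 to 5.13 on the other 6 arrays. In bulk tissue, more cells of a type and more RNA per cell cannot be told apart.

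Trem2, its adaptor Tyrobp and its ligand Apoe were higher in the mutant hippocampus, with every mutant above every normal, while Syk, Plcg2 and Inpp5d overlapped between the groups. For Apoe, Plcg2 and Syk (1418261_at), normals 2 to 4 lay below every mutant. Normal 1 was lowest for Apoe and above 3 of the mutants for Plcg2 and Syk. Without normal 1 their log2 differences were 0.45, 0.39 and 0.28 (limma adjusted p = 0.411, 0.430 and 0.411). With all 8 arrays Tyrobp differed by 4.45-fold, Trem2 by 2.86-fold on its brighter probe set and Apoe by 1.61-fold. None of the 10 probe sets passed an adjusted p of 0.05 in limma over all 22626 probe sets, where 0.0884% did so. At an unadjusted limma p under 0.05, 3 of the 10 were higher, against 3.14% of all probe sets, and the groups did not overlap, with mutants higher, for the same 3, against 1.81% of all probe sets. The limma p-values set the difference of means against the spread between animals, 1 array each, with information on that spread shared over all probe sets. That spread also holds differences in age, RNA and tissue content among the animals. A two-sided exact permutation test of 4 against 4 animals can give no p below 0.0286.

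**Figure D1:**
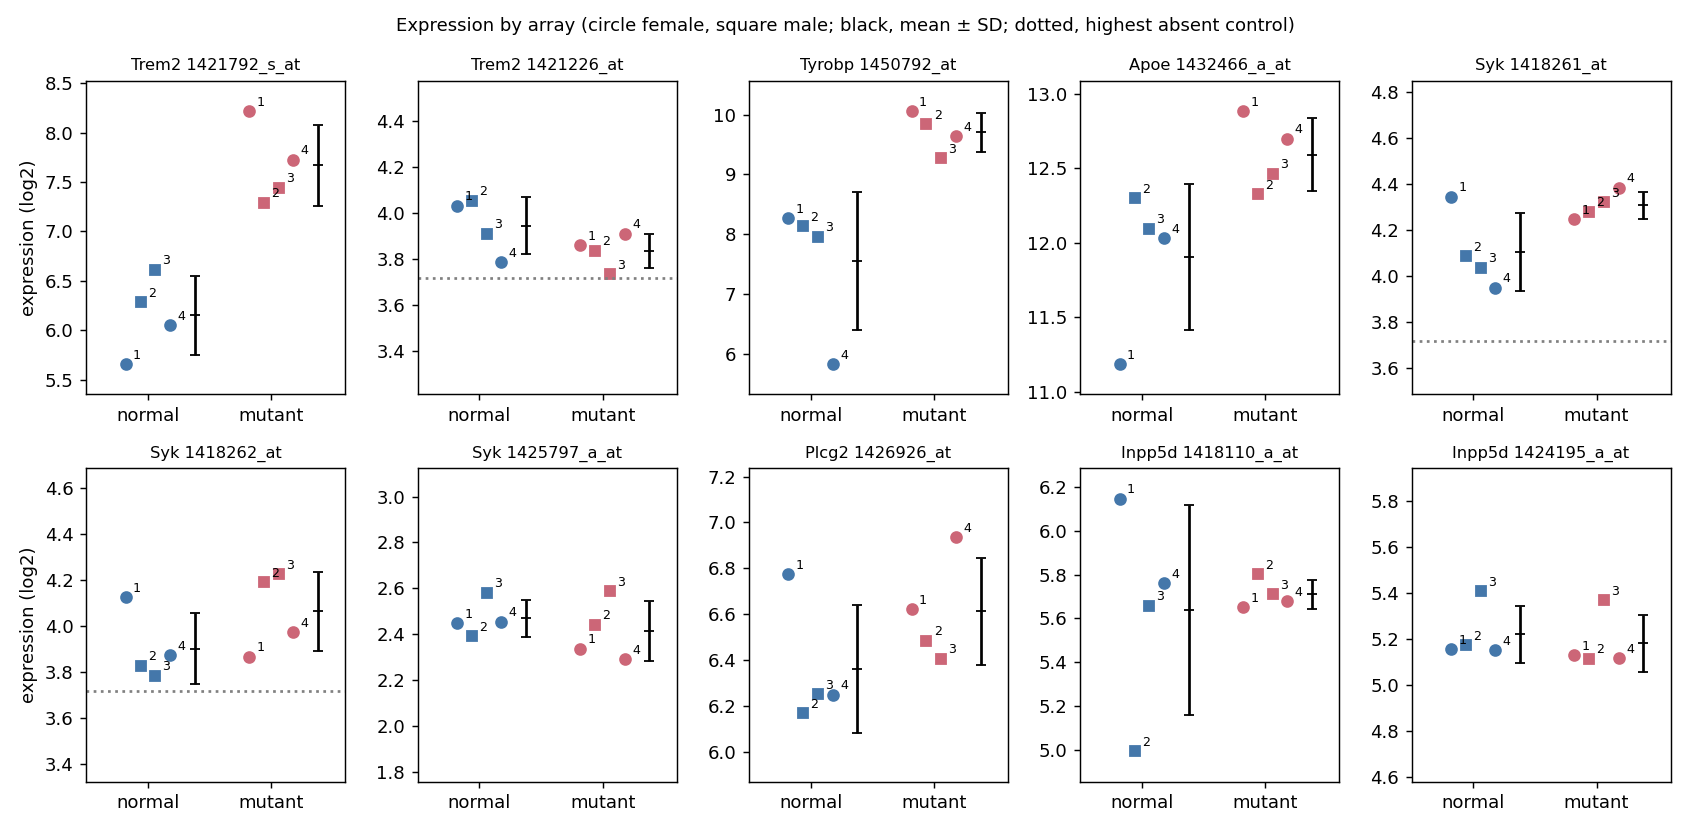
Log2 expression (y axis) of the 10 probe sets of the 6 genes in each animal, by group (x axis), with each point an array (circle female, square male), the black mark the group mean ± SD (n = 4) and the dotted line the highest absent control. The 4 mutants lie above the 4 normals for Tyrobp, the brighter Trem2 probe set and, by 0.025, Apoe, and the groups overlap in the other panels.

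Apoe, the ligand (1432466_a_at), was among the brightest transcripts, and 99.7% of probe sets were dimmer. Its log2 values were 11.19, 12.30, 12.10 and 12.03 in normals 1 to 4 and 12.88, 12.33, 12.46 and 12.70 in mutants 1 to 4. The groups did not overlap, but mutant 2 lay only 0.025 above normal 2, and the spread was set by normal 1 at the low end and mutant 1 at the high end. The means were 11.90 ± 0.49 in normals and 12.59 ± 0.25 in mutants (SD, n = 4 each), a log2 difference of 0.69 ± 0.25 (SE, 95% interval 0.12 to 1.25, limma adjusted p = 0.795). The unadjusted limma p was 0.0226 and the exact permutation p was 0.0286. Without normal 1, the array with the high 3 prime minus 5 prime value, the difference was 0.45 (limma adjusted p = 0.411).

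Trem2, the receptor, was measured by 2 probe sets that disagreed. On the brighter one (1421792_s_at), whose name ending marks probes that can match more than 1 transcript, the log2 values were 5.66, 6.29, 6.61 and 6.05 in normals 1 to 4. Mutants 1 to 4 were at 8.22, 7.29, 7.44 and 7.73, so the lowest mutant, mutant 2, was 0.68 above the highest normal, normal 3. The means were 6.15 ± 0.40 and 7.67 ± 0.41 (SD, n = 4 each), a log2 difference of 1.52 ± 0.26 (SE, 95% interval 0.93 to 2.10), or 2.86-fold (1.91 to 4.30). Its unadjusted limma p of 0.000292 ranked 44 among all probe sets, the limma adjusted p was 0.150, and the exact permutation p was 0.0286.

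The dimmer Trem2 probe set (1421226_at) showed no such difference. Its log2 values were 4.03, 4.05, 3.91 and 3.78 in normals 1 to 4 and 3.86, 3.84, 3.73 and 3.91 in mutants 1 to 4. All 8 lay just above the highest of 27 probe sets for absent bacterial transcripts, 3.72, and the groups overlapped. The log2 difference was -0.11 ± 0.10 (SE, 95% interval -0.35 to 0.13, limma adjusted p = 0.923, exact permutation p = 0.229). The differences on the 2 probe sets were 1.63 apart, and among 4956 genes with several probe sets the median gap was 0.19 and only 6 genes (0.121%) had a wider one. With the mean of both probe sets taken for the gene, the difference was 0.70 (limma adjusted p = 0.204). Which transcripts each probe set reads was not tested.

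Tyrobp, the adaptor (1450792_at), differed by the most. Its log2 values were 8.27, 8.14, 7.96 and 5.83 in normals 1 to 4 and 10.06, 9.84, 9.28 and 9.64 in mutants 1 to 4. The lowest mutant, mutant 3, lay 1.00 above the highest normal, and normal 4, the youngest animal, lay more than 2 log2 units below the other normals. The means were 7.55 ± 1.15 and 9.70 ± 0.33 (SD, n = 4 each), a log2 difference of 2.16 ± 0.51 (SE, 95% interval 0.98 to 3.33), or 4.45-fold (1.97 to 10.1). Its unadjusted limma p was 0.00273 (rank 147), the limma adjusted p was 0.416 and the exact permutation p was 0.0286. Without normal 4 the difference was 1.58 and the limma adjusted p was 0.0881.

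Syk, the kinase recruited by Tyrobp, was dim on all 3 of its probe sets. On 1418261_at the log2 values were 4.35, 4.09, 4.04 and 3.95 in normals 1 to 4 and 4.25, 4.28, 4.32 and 4.38 in mutants 1 to 4. Here 3 of the 4 normals lay below every mutant, and normal 1 lay above 3 of the mutants. The log2 difference was 0.20 ± 0.11 (SE, 95% interval -0.06 to 0.46, limma adjusted p = 0.896, exact permutation p = 0.114). Without normal 1 it was 0.28 (limma adjusted p = 0.411). On 1418262_at normals 1 to 4 were at 4.13, 3.83, 3.78 and 3.87 and mutants 1 to 4 at 3.87, 4.19, 4.23 and 3.97, and the groups again overlapped. That difference was 0.16 ± 0.13 (SE, 95% interval -0.13 to 0.46, limma adjusted p = 0.922, exact permutation p = 0.200). The third probe set (1425797_a_at) was at 2.29 to 2.59 on all 8 arrays, within the range of the absent controls, and gives no fold.

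Plcg2, the phospholipase (1426926_at), overlapped between the groups. Its log2 values were 6.78, 6.17, 6.25 and 6.25 in normals 1 to 4 and 6.62, 6.49, 6.41 and 6.94 in mutants 1 to 4. Every mutant lay above normals 2 to 4, and normal 1 lay above 3 of the 4 mutants. The means were 6.36 ± 0.28 and 6.61 ± 0.23 (SD, n = 4 each), and the log2 difference was 0.25 ± 0.17 (SE, 95% interval -0.15 to 0.65, limma adjusted p = 0.905, exact permutation p = 0.229). The interval holds 0 and also differences as large as 1.57-fold.

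Inpp5d, the inhibitory phosphatase, had means that were close in the 2 groups. On 1418110_a_at the log2 values were 6.15, 4.99, 5.66 and 5.76 in normals 1 to 4 and 5.65, 5.80, 5.71 and 5.68 in mutants 1 to 4. The mutants lay within a narrow band inside the range of the normals, whose extremes were normal 2 and normal 1. The means were 5.64 ± 0.48 and 5.71 ± 0.066 (SD, n = 4 each), with a log2 difference of 0.07 ± 0.22 (SE, 95% interval -0.44 to 0.58, limma adjusted p = 0.983, exact permutation p = 0.800). Without normal 2 that difference was -0.14. On 1424195_a_at normals spanned 5.15 to 5.41 and mutants 5.11 to 5.37, and the difference was -0.04 ± 0.11 (SE, 95% interval -0.30 to 0.22, limma adjusted p = 0.978, exact permutation p = 0.457). It was 0.022 without normal 3, the highest normal.

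**Figure D2:**
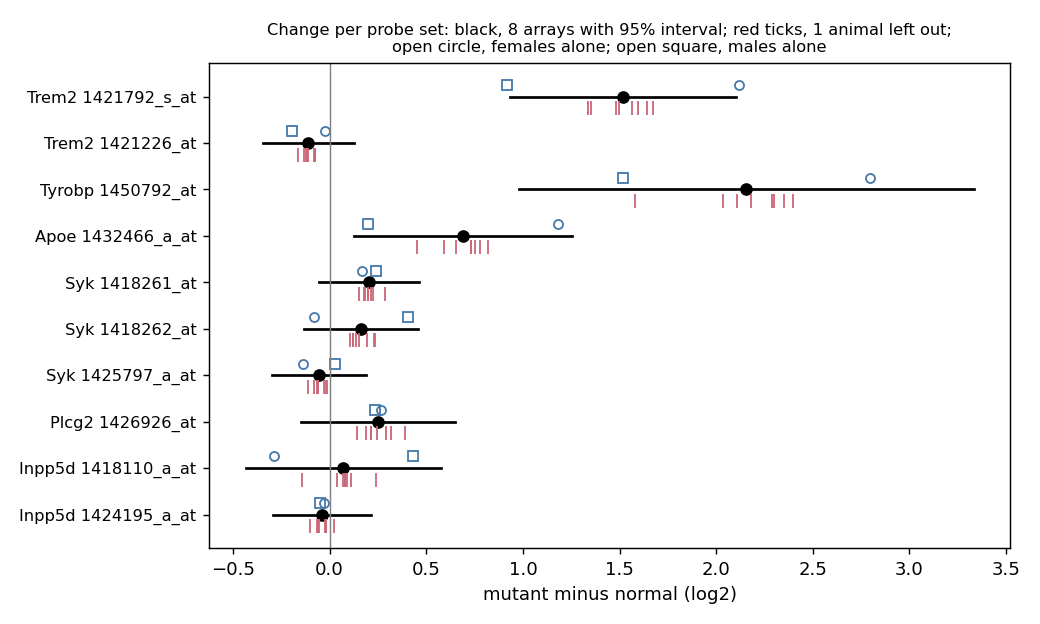
Log2 difference, mutant minus normal (x axis), for each of the 10 probe sets (y axis), with the black point the limma estimate and the bar its 95% interval (n = 4 animals per group), red ticks the estimates with 1 animal left out, and open circles and squares the females and males alone. The intervals of Tyrobp, the brighter Trem2 probe set and Apoe lie above 0 before adjustment, and the other 7 hold 0.

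Age and sex were not balanced pair by pair, so the animals of the same age were set side by side. At 38.3 weeks, where both animals were female, mutant 1 exceeded normal 1 by 2.56 for Trem2 (1421792_s_at), by 1.78 for Tyrobp and by 1.70 for Apoe on the log2 scale. At 25.6 weeks, where all 3 animals were male, mutants 2 and 3 exceeded normal 2 by 1.01 and 1.15 for Trem2, by 1.71 and 1.14 for Tyrobp, and by 0.025 and 0.16 for Apoe. At 19.6 weeks female mutant 4 exceeded male normal 3 by 1.11 for Trem2, 1.68 for Tyrobp and 0.60 for Apoe. Trem2 and Tyrobp thus differed by at least 1.01 at each shared age, and Apoe was close to even in the males. The oldest pair includes normal 1, with the high 3 prime minus 5 prime value, and mutant 1, with the highest choroid plexus mean, and their part in these values was not tested.

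**Figure D3:**
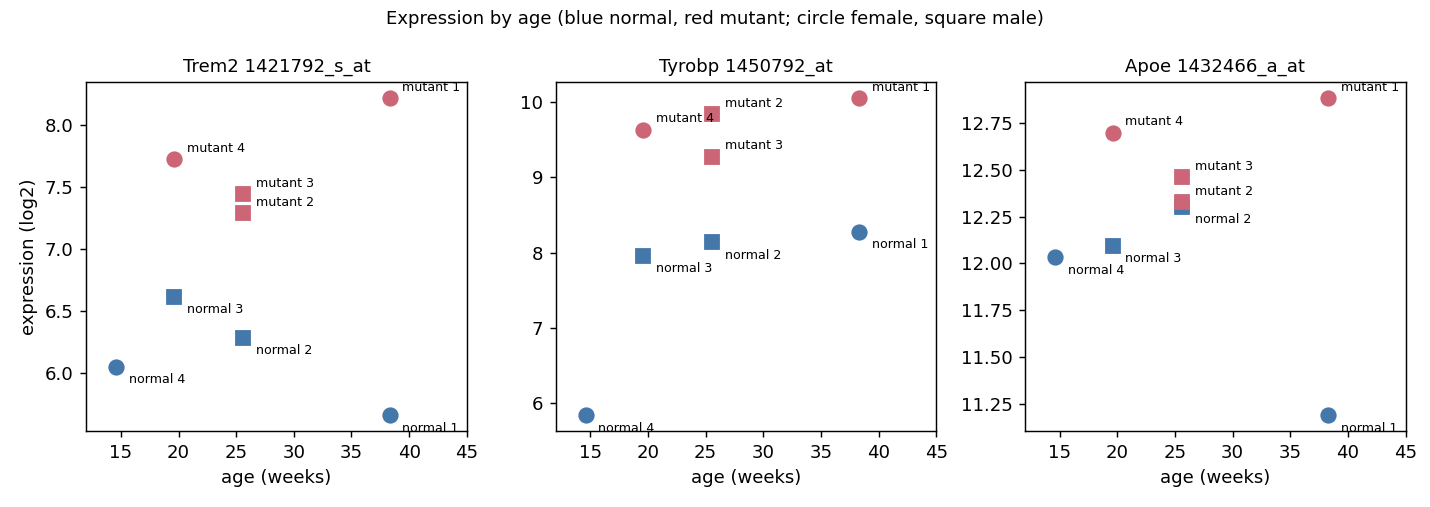
Log2 expression (y axis) of Trem2 (1421792_s_at), Tyrobp and Apoe against age in weeks (x axis), with each point an animal, marked by group and sex. Mutants lie above the normals at 19.6, 25.6 and 38.3 weeks, with Apoe nearly even at 25.6 weeks, and the normal at 14.6 weeks has the lowest Tyrobp value.

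No member had a difference between genotypes that depended on sex past the adjusted threshold. For Trem2 (1421792_s_at) the log2 difference was 2.12 in females and 0.92 in males, and the male minus female difference of -1.20 ± 0.34 (SE) had an unadjusted limma p of 0.0113 and a limma adjusted p of 0.397. For Apoe it was 1.18 in females and 0.20 in males (-0.99 ± 0.40, limma adjusted p = 0.472), and for Tyrobp 2.79 and 1.52 (-1.28 ± 1.04, limma adjusted p = 0.693). At an unadjusted p under 0.05, 10.5% of all probe sets had such an interaction and 0% passed after adjustment, and 2 of the 10 members, Trem2 (1421792_s_at) and Apoe, had one before adjustment, a count close to that share. Each sex and genotype held 2 animals, and normals 1 and 4, the oldest and the youngest, were both female. Normal 1, with the 3 prime minus 5 prime value of 3.58, also had the lowest Trem2 and Apoe values. Without it, against normal 4 as the only female normal, assumed to vary like the other groups, the female difference was 1.92 for Trem2, 0.76 for Apoe and 4.02 for Tyrobp. The male minus female difference was then -1.01 ± 0.35 for Trem2, -0.56 ± 0.24 for Apoe and -2.50 ± 0.40 for Tyrobp (SE, limma adjusted p = 0.268, 0.348 and 0.143).

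Markers of other cells moved as well. Over all 12393 genes, each on its brightest probe set, 52.5% had higher means and 2.27% had groups apart with mutants higher. The mean of 19 general microglial markers was 6.95 to 7.52 in normals and 7.85 to 8.16 in mutants (difference 0.69, exact permutation p = 0.0286), with 17 of 19 genes higher, 10 with groups apart and normal 4 lowest. Of 11 homeostatic microglial markers, genes of the resting state, 9 were lower, and the mean of the 11 was 6.60 to 7.10 in normals and 6.51 to 7.04 in mutants (-0.25, exact permutation p = 0.257). Groups were apart with mutants higher for 1 of them, Fcrls (0.89), and with mutants lower for 2. The brightest of them, Mef2c, ranged from 8.24 in mutant 1 to 10.9 in normal 3, and its part in the mean was not tested. The general list was thus apart between the groups and the resting list overlapped. The astrocyte mean, from a cell type that makes Apoe, was 8.83 to 9.21 in normals and 9.39 to 9.54 in mutants (11 of 13 genes higher, exact permutation p = 0.0286). Of 12 border macrophage and monocyte markers, 5 were higher and Ccr2, Ccr1 and Plac8 were at the level of the absent controls on all arrays, with means of 3.58 to 4.68 in normals and 3.92 to 4.34 in mutants. The lymphocyte mean was 3.75 to 3.97 in normals and 3.71 to 3.86 in mutants, with 5 of 11 genes higher and Cd3g, Cd79b, Ms4a1 and Gzma at the absent level. All 11 choroid plexus markers and all 12 meningeal markers were higher, chiefly in mutants 1 and 3, and all 9 oligodendrocyte markers were lower. The part of these cells in the values of Trem2 (1421792_s_at), Tyrobp and Apoe was not tested. Without mutants 1 and 3 their log2 differences were 1.36, 2.19 and 0.61 (limma adjusted p = 0.578, 0.755 and 0.873). With the choroid plexus mean as a covariate they were 1.29, 1.81 and 0.60 (limma adjusted p = 0.999 for each).

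Set against general microglial markers on the same array, Trem2 and Tyrobp still stood higher in mutants and Apoe did not. Trem2 (1421792_s_at) minus the general marker mean was -1.60, -1.20, -0.91 and -0.90 in normals 1 to 4 and 0.05, -0.68, -0.41 and -0.27 in mutants 1 to 4, a difference of 0.83 with the groups apart (exact permutation p = 0.0286). Tyrobp minus that mean was 1.01, 0.65, 0.44 and -1.12 in normals 1 to 4 and 1.89, 1.88, 1.42 and 1.64 in mutants 1 to 4, a difference of 1.46 (exact permutation p = 0.0286). These 2 probe sets are among the 0.146% whose mutants all lay above all normals on this scale. That share is over all probe sets and not over microglial genes. Some general markers also differed by more than the list's mean of 0.69, such as Mpeg1 (2.07) and C1qc (1.46). Others differed by less, such as Csf1r (-0.19). Apoe minus the marker mean had a difference of -0.0025 (exact permutation p = 1). That difference was -0.23 without normal 1 and 0.16 without normal 4. Apoe was not set against the astrocyte markers. Lower values on this scale were common, since 54% of all probe sets had every mutant below every normal, and so had the dimmer Trem2 probe set (-0.80), Syk (-0.49 on 1418261_at, and the probe set at the absent level) and Inpp5d (-0.73 on 1424195_a_at). Plcg2 was at -0.44 (exact permutation p = 0.143) and the other Inpp5d probe set at -0.62 (exact permutation p = 0.143).

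Against the homeostatic markers Trem2 and Tyrobp again stood higher in every mutant. The difference was 2.40 for Tyrobp and 1.77 for Trem2 (exact permutation p = 0.0286 for each), with groups apart, as in 2.21% of all probe sets. The dimmer Trem2 probe set was at 0.14 with overlapping groups (exact permutation p = 0.543). Apoe was at 0.94 (exact permutation p = 0.0571) and Plcg2 at 0.50 (exact permutation p = 0.114). Syk was at 0.45 on 1418261_at (exact permutation p = 0.0857) and at 0.41 on 1418262_at (exact permutation p = 0.0571). The Inpp5d probe sets were at 0.32 and 0.21 (exact permutation p = 0.229 for each). These are 20 comparisons of 10 probe sets with 2 marker lists, with no adjustment over them.

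**Figure D4:**
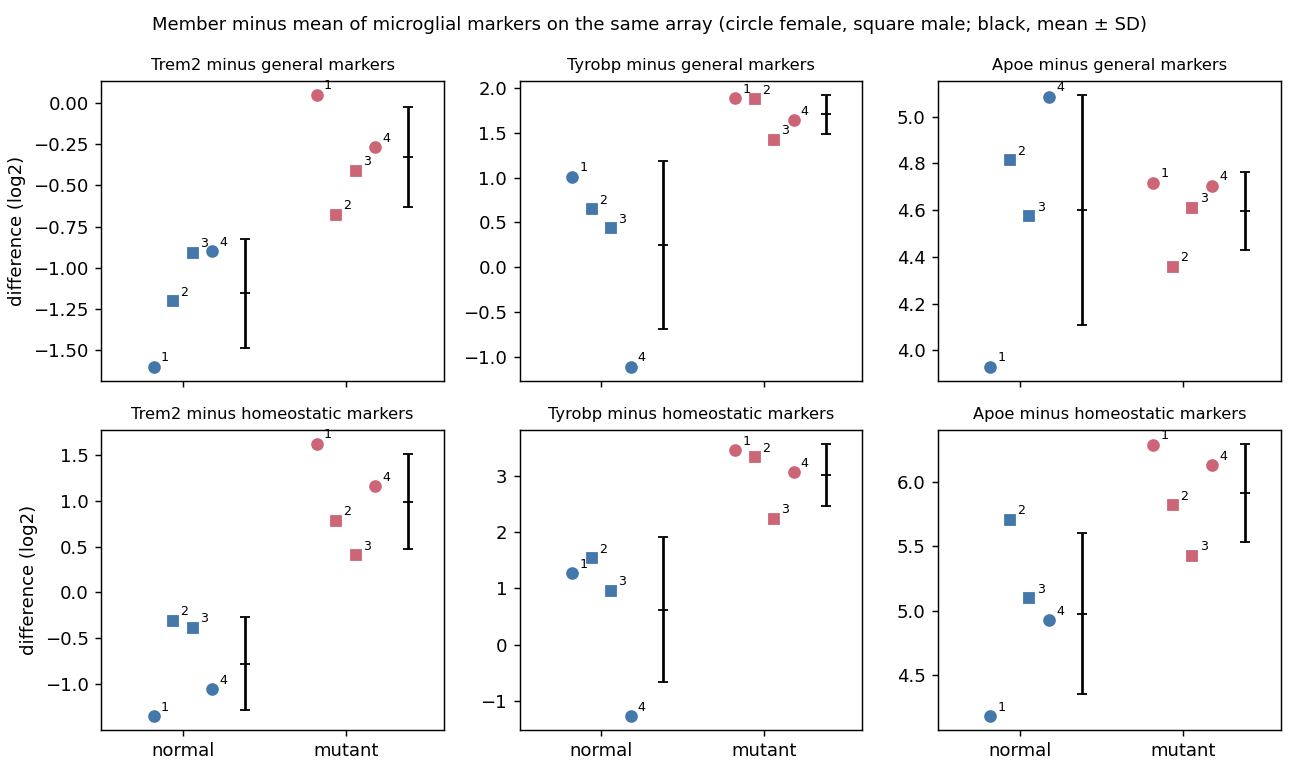
Log2 value of Trem2 (1421792_s_at), Tyrobp and Apoe minus the array's mean of the general (top) or homeostatic (bottom) microglial markers (y axis), by group (x axis), with each point an animal (circle female, square male) and the black mark the mean ± SD (n = 4). Trem2 and Tyrobp are higher in all 4 mutants on both scales, and Apoe overlaps.

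The genes whose profile over the 8 arrays lay closest to each member were found by the root mean square difference of centred log2 values, for the 4 genes whose brightest probe set ranged over more than 1 log2 unit. For Trem2 they were Syngr1 (0.25), the complement genes C1qc (0.26) and C1qb (0.32), Anxa4 (0.34) and Ctsd, which encodes the lysosomal protease cathepsin D (0.37). For Tyrobp they were the galectin genes Lgals1 (0.40) and Lgals3 (0.43), the lysozyme gene Lyz1 (0.43), Fcer1g, the other main activating adaptor of myeloid cells (0.43), and Cd48 (0.50). Trem2 and Tyrobp had none of their nearest genes in common. For Apoe they were Fads3 (0.09), Arrb2 (0.14), Dpp7 (0.15), Cirbp (0.16) and Prkaca (0.17). Apoe and its neighbours were lowest in normal 1. For Inpp5d (1418110_a_at) they were Pdgfc (0.08), Pak2 (0.08), Nnt, Dennd6a and Hey1 (0.11 each). Inpp5d and these neighbours were highest in normal 1 and lowest in normal 2. Syngr1, Anxa4 and Ctsd were lowest in normal 1, as Trem2 was, while C1qc and C1qb were lowest in normal 4. Tyrobp and its neighbours were lowest in normal 4. Genotype, age and tissue content all differed among the animals and were not separated here, so likeness over 8 arrays is a description only.

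Other genes of the pathway were read from lists, each gene on its brightest probe set, beside a median difference of 0.01 and 52.5% higher means over all 12393 genes, of which 12 rose and 1 fell. Among apolipoproteins and lipoprotein receptors, 10 of 18 measured genes were higher, 8 were lower and 0 passed (median 0.15, or 0.0051 without normal 4). Lrp1, a large endocytic receptor for Apoe, went from 8.76 ± 0.28 to 9.30 ± 0.18 (SD, n = 4 each) with groups apart (0.55 ± 0.16 SE, limma adjusted p = 0.647). Pltp, a phospholipid transfer protein gene, was 0.76 higher (limma adjusted p = 0.693), and Cd36 was at the level of the absent controls. Of 13 cholesterol efflux and LXR genes, 10 were higher, 3 lower and 0 passed (median 0.26, or 0.071 with the mean of probe sets), led by the lysosomal cholesterol carrier gene Npc2 (0.68, limma adjusted p = 0.417, groups apart). The transporter gene Abca7 was at 0.67 (limma adjusted p = 0.771) and Abcg1 at -0.32 (limma adjusted p = 0.819).

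The other receptors and adaptors that signal like Trem2 and Tyrobp were split. Of 12 measured, 6 were higher, 6 lower and 0 passed (median -0.01, or 0.59 without dim probe sets). Fcer1g was at 7.90, 7.76, 7.61 and 6.01 in normals 1 to 4 and at 8.90, 8.79, 8.40 and 8.69 in mutants 1 to 4, so normal 4 was low as it was for Tyrobp. Its difference was 1.37 ± 0.39 (SE, limma adjusted p = 0.585), and Fcer1g is also 1 of the general microglial markers. Hcst, which encodes the adaptor DAP10, was at 0.32 (limma adjusted p = 0.809, groups apart) and the receptor gene Pilrb1 at -0.26 (limma adjusted p = 0.846).

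Downstream of the adaptor the list medians were small, while single genes differed by as much as Apoe did. Of 23 kinases and adaptors of the activation motif, 17 were higher, 6 lower and 0 passed (median 0.09), with Src at 0.87 (limma adjusted p = 0.739), the Tec family kinase gene Btk at 0.29 (limma adjusted p = 0.800, groups apart) and Akt1 at 0.44 (limma adjusted p = 0.846). Of 13 genes around and below the phospholipase, 7 were higher, 6 lower and 0 passed (median 0.06, and below 0 in 7 of 10 alternatives), and Plcg1, its close relative, was at the absent level. Their smallest p-values were those of the diacylglycerol kinase gene Dgka (0.37, limma adjusted p = 0.896), Rasgrp1 (-0.68, limma adjusted p = 0.910) and the protein kinase C gene Prkcb (-0.47, limma adjusted p = 0.921). Prkcb was highest, at 12.03, in normals 1 and 3, which also had the highest striatal means (10.3 and 10.4). Prkcd of this list is also 1 of the thalamic markers, and ranged from 6.86 in mutant 3 to 10.9 in normal 2. The part of tissue content in this list was not tested. Of 18 inhibitory receptors and phosphatases, 12 were higher, 6 lower and 0 passed (median 0.03). Cd300a, an inhibitory receptor gene, was at 3.77 to 4.35 in normals and 4.66 to 5.04 in mutants (0.77 ± 0.15 SE, limma adjusted p = 0.226), and Cd22 (0.76, limma adjusted p = 0.429) and Cd300lf (0.73, limma adjusted p = 0.585) had groups apart too. Of 6 genes for proteases that process Trem2 and for their subunits, 3 were higher, 3 lower and 0 passed (median 0.10). The 3 higher were Psen2 at 0.23, Psenen at 0.37 and Aph1a at 0.30 (limma adjusted p = 0.910, 0.922 and 0.931). The 3 lower were Adam10 at -0.09, Adam17 at -0.06 and Ncstn at -0.02, and all 6 overlapped between the groups.

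The Ms4a cluster and the lists of genes that microglia raise in disease held the members that passed. In the Ms4a cluster, a gene family whose locus is tied to soluble TREM2 in humans, 5 of 10 genes were higher, 5 lower, and 4 of the 10 were at the absent level (median 0.01, or 1.88 without dim probe sets). Ms4a7 rose from 4.61 ± 0.25 to 6.49 ± 0.44 (SD, n = 4 each), 3.69-fold (limma adjusted p = 0.0367), and is also 1 of the border macrophage markers. Ms4a6d was at 1.21 (limma adjusted p = 0.175) and Ms4a6b at 0.74 (limma adjusted p = 0.169), both with groups apart. Of 8 genes of the early disease-associated state, 7 were higher and 1 rose (median 0.74, or 0.45 with the mean of probe sets), the lysozyme gene Lyz2 (2.91, limma adjusted p = 0.0165). B2m, the MHC class I light chain gene, was at 0.98 (limma adjusted p = 0.424) and Ctsd at 1.16 (limma adjusted p = 0.425).

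Of 13 measured genes of the later state, which in mice depends on Trem2, 12 were higher and 4 rose (median 1.02), and 10 had groups apart, or 76.9% against 2.27% of all genes. Gpnmb, a glycoprotein gene of phagocytes, was at 3.98 to 4.06 in normals and 6.79 to 7.65 in mutants (3.30 ± 0.18 SE, limma adjusted p = 0.000895). Clec7a, a beta-glucan receptor gene that also signals through Syk, was at 4.01 to 5.05 in normals and 7.75 to 8.49 in mutants (3.38 ± 0.26 SE, limma adjusted p = 0.00324). Cst7, the cystatin F gene, was within the range of the absent controls in normals (3.18 to 3.31) and at 5.99 to 6.96 in mutants (limma adjusted p = 0.000895). Cd68, a lysosomal membrane protein gene of phagocytes, rose 4.24-fold (limma adjusted p = 0.0367). The 1 lower member was the lipase gene Lpl, at -0.79 (limma adjusted p = 0.923), with normals from 6.84 to 9.89 and mutants from 7.09 to 9.09. These lists were chosen with results of these arrays known and are no independent evidence of their direction. Choroid plexus, meningeal and general microglial marker means moved with them, as above, and their part was not tested.

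**Figure D5:**
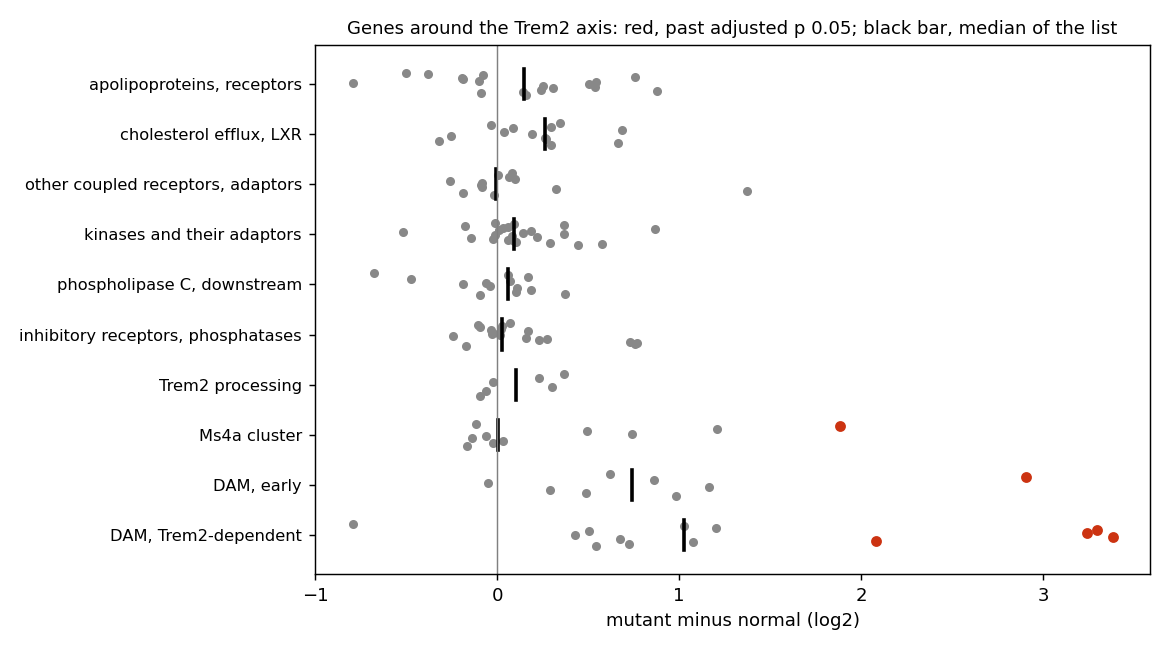
Log2 difference, mutant minus normal (x axis), of each measured gene in the 10 pathway lists (y axis), with each point a gene on its brightest probe set, the black bar the list's median and genes past limma adjusted p 0.05 in red. The 2 lists of disease-associated microglial genes have medians of 0.74 and 1.02, and the other 8 medians lie between -0.01 and 0.26.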

How the data were processed

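Gene expression was measured with 1 Affymetrix mouse array per animal in right hippocampus of 4 normal and 4 mutant mice. The authors deposited 1 log2 value per probe set and array, made with RMA (background correction, normalization and summarisation), and GCOS 1.4 is named too, per the submitters' processing notes. RNA was taken up in TRIzol, purified with a lipid tissue kit and copied to biotinylated RNA, per the labels' protocols. The build used to design the probe sets is not given in the sources used here. Scanner files were not analysed here, so the RMA steps could not be repeated.

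Besides 64 controls, 22626 of 22690 probe sets were kept, and 20380 had 1 gene symbol (20351 matched RefSeq by Entrez ID), 691 several and 1555 none. Array medians were 6.09 to 6.17. Arrays give no counts, so precision is set by the 4 animals per group.

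The lmFit and eBayes functions of limma 3.58.1 (R 4.3.3) were run on all 22626 probe sets, mutant minus normal and with no covariate, with Benjamini-Hochberg adjustment over all of them and a threshold of 0.05. A two-sided exact permutation test over 70 arrangements was run on single values. The interaction of genotype and sex was a separate limma fit. No probe set was removed for low values. The fit was tested on simulated data. Promoters came from RefSeq (GRCm38.p6), and figures were drawn with matplotlib 3.10.9.

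The 6 genes, the pathway and marker lists, the tests and the alternatives were chosen with earlier results of these data known. Named genes were all probe sets of the 6 genes, up to 3 members of each list by p, the 5 nearest profiles, and markers at the level of the absent controls. Cd68, Lpl, Plcg1, Mpeg1, Csf1r, Adam10, Adam17, Ncstn, Prkcd, Fcrls and Mef2c were named after their values were seen. Alternatives were 1 probe set or the mean per gene, leaving out probe sets named for cross-hybridisation or the dimmest 40%, quantile normalization again, median centring, trend and robust eBayes, array weights, sex and age as covariates, ages as a random block, a regional component or the choroid plexus mean as covariates, and leaving out animals.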

Additional observations from a re-analysis of the deposited data

Results flagged for a closer look

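In 20 groups of 4 arrays, 1 per probe set and genotype, a single animal stood apart by Dixon's test in 4. None did in 12 groups of values set against microglial markers. The nominal rate of about 1 in 20 is for independent groups, and these groups share animals. The share over all probe sets is not given here, so 4 was not shown to be an excess. Tyrobp was at 5.83 in normal 4, with the gap to the next normal 0.870 of the range. Plcg2 was at 6.78 in normal 1 (0.862 of the range), the animal with the high 3 prime minus 5 prime value. Inpp5d on 1424195_a_at was at 5.41 in normal 3 (0.915 of the range) and at 5.37 in mutant 3 (0.944 of the range).

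Inpp5d on 1418110_a_at moved in opposite directions in the sexes, with both mutants beyond both normals in each, as did 10.8% of all probe sets. The log2 difference was -0.29 in females and 0.43 in males, and the male minus female difference was 0.72 ± 0.36 (SE, limma adjusted p = 0.532, 2 animals per sex and genotype).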

How the results depend on the processing

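The count of probe sets of the 6 genes past the threshold was 0 in the reported fit and in all 24 alternatives that gave one, while 3 had an unadjusted limma p under 0.05 in the reported fit. Trem2 (1421792_s_at) stayed higher in mutants under its 25 alternatives, Tyrobp under 26 and Apoe under 26. The limma adjusted p ran from 0.0743 (array weights) to 0.999 (choroid plexus covariate) for Trem2, from 0.0844 to 1.00 for Tyrobp and from 0.237 to 1.00 for Apoe. In females and males alone the log2 differences, with no test, were 2.12 and 0.92 for Trem2 and 1.18 and 0.20 for Apoe. Leaving out 1 animal gave 1.34 to 1.67 for Trem2, 1.58 to 2.40 for Tyrobp and 0.45 to 0.82 for Apoe. With probe sets named for cross-hybridisation left out, this Trem2 probe set has no value.

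Directions turned on 4 of the other probe sets, none of which had passed. With the regional component as a covariate Syk 1425797_a_at was at 0.023 and Inpp5d 1424195_a_at at 0.045. In females alone Syk 1418262_at was at -0.08 and Inpp5d 1418110_a_at at -0.29, and in males alone Syk 1425797_a_at was at 0.028. Leaving out 1 animal gave -0.14 to 0.24 on Inpp5d 1418110_a_at (below 0 without normal 2) and -0.10 to 0.022 on Inpp5d 1424195_a_at (above 0 without normal 3). The cause was not tested.

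In the pathway lists 6 genes passed as reported, 3 to 5 with 1 animal left out (3 without normal 3 or mutants 1, 2 or 4), 7 with the mean of probe sets and 5 without dim probe sets. Over 10 alternatives the list medians ran from 0.0051 to 0.25 for apolipoproteins, 0.071 to 0.28 for cholesterol efflux, -0.02 to 0.59 for other coupled receptors, 0.036 to 0.12 for kinases, -0.079 to 0.072 for genes around the phospholipase, 0.015 to 0.10 for inhibitory genes, 0.030 to 0.15 for Trem2 processing, -0.04 to 1.88 for the Ms4a cluster, 0.45 to 0.89 for the early disease-associated genes and 0.74 to 1.20 for the later ones. Over all probe sets 18 rose and 2 fell as reported, against 50 and 10 with array weights, 7 and 0 with sex, 10 and 0 with age, 6 and 0 with both, 4 and 0 with the regional component, 2 and 0 with the choroid plexus mean, and 3 and 0 without mutants 1 and 3. Leaving out 1 animal gave 6 to 15 that rose and 0 to 12 that fell. No paired analysis was possible because the replicate numbers are only names and pair no animals. Shared age was used in its place, as a random block in limma, and the differences were 1.48 for Trem2, 2.26 for Tyrobp and 0.68 for Apoe (limma adjusted p = 0.221, 0.538 and 0.868). After the data were seen, the fit of genotype by sex was repeated without normal 1, and 0 members passed, as in the reported fit.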
